A study of Homo sapiens with 21 samples.

Results

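The genes described here are NF-kB factors, their regulators, and cytokines and chemokines that are known NF-kB targets, measured in HK-2, an immortalised human cell line with its origin in the proximal tubule of the kidney. They were taken from a list of gene symbols, with IL8 (the older symbol of CXCL8) added under the name the count table uses, and 33 of the 23368 features of the table are members. Of these, 27 had enough counts for a test, and 6 (*IL1A*, *IL1B*, *CXCL1*, *CXCL6*, *CCL2* and *PTGS2*) did not. The treated cells received 5 µg/mL cyclosporine A for 48 h, and the control cells received the vehicle, 0.1% ethanol, for the same time. Each group has 4 libraries of polyadenylated RNA and 4 of small RNA. RNA bound to AGO2, the protein that carries microRNAs, was recovered by PAR-CLIP after 24 h of either treatment, from 2 libraries per treatment that share 1 list of binding clusters. For RNA bound to all Argonaute proteins there is 1 library, with no treatment recorded. No transgene or genotype differs between the groups. Nothing in the labels states that the 4 libraries of a group are separate cultures; the p-values therefore reflect the library-to-library spread alone, and this spread could be technical.

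NF-kB is a family of dimeric transcription factors that IkB proteins hold in the cytoplasm. Receptors for TNF, IL-1 and microbial products act through TRAF adaptors and the IKK complex to release the dimers, which then switch on cytokines, chemokines, adhesion molecules and the pathway's own inhibitors, among them IkB alpha and A20. In the kidney, tubule cells are a source of such cytokines during injury. Cyclosporine A binds cyclophilins and inhibits the phosphatase calcineurin.

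After cyclosporine A, the members did not move in 1 direction. Of the 27 tested, 10 were higher, 11 were lower and 6 did not pass the test (edgeR's quasi-likelihood test, adjusted p under 0.05 over all 12855 features tested). Of all features tested, 66.9% were called in either direction, 33.3% higher and 33.5% lower, so the count among the members is to be read against a table in which most genes were called. The groups did not overlap in 14 of the 27 members, against 57.9% of all features. In 5 members a call came with a log2 change of 1 or more in size, against 12.2% of all features. The median log2 change of the tested members was 0.05, beside -0.00 for all features. *TNF* and *TNFAIP2* had the largest falls of the tested members, and *CSF2*, *NFKBIB* and *TNFAIP3* the largest rises.

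**Figure D1:**
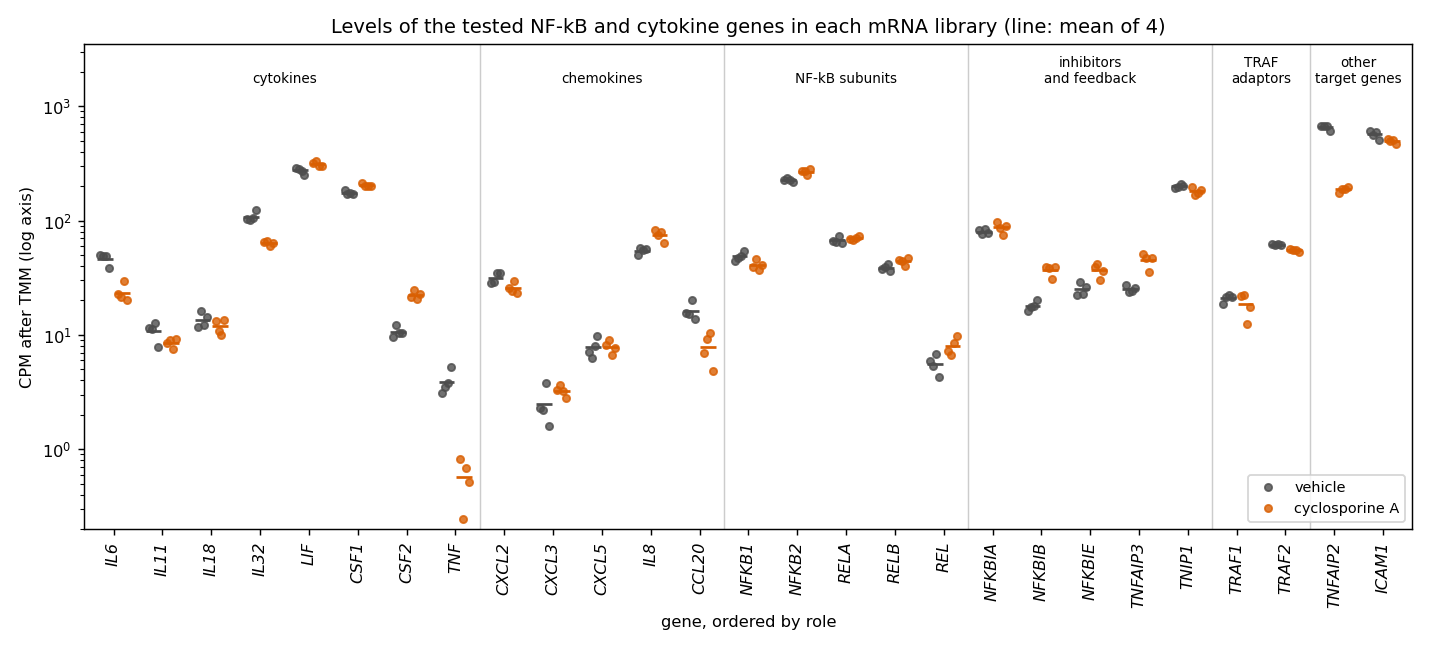
Level of each of the 27 tested members in each mRNA library, in CPM after TMM scaling on a log axis. Points are libraries, short lines are the mean of 4, grey is vehicle and orange is cyclosporine A. *TNFAIP2*, *TNF*, *CSF2* and *NFKBIB* show groups that do not overlap, while those of *RELA* and *NFKBIA* do.

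Levels are given as CPM (counts scaled to a fixed library size) after TMM scaling, which serve to compare 1 gene between libraries and not 2 genes with each other, and changes as log2 fold changes, treated over control, ± the standard error. Libraries held between 3965431 and 7041604 counts. The levels of cell type markers were taken from the same libraries. Of 19 leukocyte markers, 11 had no count in any library, among them *PTPRC*, *CD3E*, *MS4A1* and *LYZ*, and the summed level of the list was 166 to 207 CPM in the control libraries and 241 to 265 CPM in the treated ones. Only 4 of the 19 could be tested, and they did not move together. *CD68*, a lysosomal protein of macrophages and many other cells, made up most of the sum and rose from means of 150 to 196 CPM (0.39 ± 0.06), *ITGAX* (0.25 ± 0.10) and *CSF1R* (1.60 ± 0.16) were also higher, and *CD14*, a monocyte marker, fell from 7.501 to 1.13 CPM (-2.64 ± 0.31, adjusted p = 9.69e-11). The *ITGAX* call was lost in 5 of 16 alternative settings. The 12 endothelial and stromal markers summed to 361 to 404 CPM in the control libraries and 109 to 127 CPM in the treated ones. Most of this sum was *LUM*, which fell from means of 264 to 63.1 CPM (-2.06 ± 0.07), and *DCN*, from 96.1 to 48.6 CPM (-0.98 ± 0.08). *COL1A1* also fell (-1.52 ± 0.17), and no other marker of this list could be tested. *PECAM1*, *KDR* and *COL1A2* had no count in any library. The 21 epithelial and kidney tubule markers summed to 2531 to 2619 CPM and 2276 to 2398 CPM. Of these 21, 7 had too few counts for a test, among them *AQP1*, *LRP2* and *CUBN* of the mature proximal tubule, and *HNF4A* had no count in any library, while *PAX8* (833 ± 18.4 CPM with vehicle), *KRT19* and *GGT1* were present. The part of these shifts in the changes of the cytokine genes was not tested. In bulk RNA, fewer cells that express a gene and less RNA per cell cannot be told apart.

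Among the 8 tested cytokines, 3 were higher, 4 were lower and 1 did not pass. *TNF*, which encodes 1 of the ligands that activate the pathway, stood at 3.12, 3.50, 3.81 and 5.19 CPM in the vehicle libraries and at 0.823, 0.244, 0.690 and 0.511 CPM after cyclosporine A. All 4 treated libraries lay far below all 4 vehicle libraries, but their counts were few. The change was -2.66 ± 0.38 (adjusted p = 1.65e-08).

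*IL6*, which drives the acute phase response, was at 49.5, 49.0, 48.7 and 38.4 CPM with vehicle and at 22.8, 21.3, 29.4 and 20.2 CPM with cyclosporine A. The highest treated library stayed below the lowest vehicle library. The change was -0.99 ± 0.10 (adjusted p = 1.09e-12). *IL32*, a cytokine that induces other inflammatory mediators, went from 102, 100.3, 105 and 123 CPM to 64.4, 66.4, 60.3 and 64.2 CPM, and the groups did not overlap (-0.75 ± 0.07, adjusted p = 1.08e-13). *IL11*, of the IL-6 family, had means of 10.8 ± 2.06 and 8.57 ± 0.730 CPM (SD, n = 4 libraries each) with overlapping groups. Its call was close to the threshold (-0.35 ± 0.16, adjusted p = 0.0486) and was lost in 11 of 16 alternative settings.

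The colony-stimulating factors and *LIF* went the other way. *CSF2*, which encodes the myeloid growth factor GM-CSF, was at 9.65, 12.1, 10.4 and 10.4 CPM with vehicle and at 21.4, 24.7, 20.7 and 22.8 CPM with cyclosporine A. Every treated library lay above every vehicle library (1.07 ± 0.13, adjusted p = 9.27e-11). *CSF1*, the macrophage growth factor, rose from 175 ± 6.59 to 204 ± 7.05 CPM (0.22 ± 0.06). *LIF*, also of the IL-6 family, rose from 275 ± 16.8 to 312 ± 16.4 CPM (0.18 ± 0.06, adjusted p = 0.00556), without overlap in either gene. The *LIF* call was lost with upper quartile scaling, where its change was 0.10 (adjusted p = 0.113). *IL18*, which is stored as a precursor and cut by caspases, had means of 13.6 ± 2.02 and 11.8 ± 1.795 CPM, and its change had a 95% interval of -0.48 to 0.10 (adjusted p = 0.256).

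Both genes of interleukin 1 were close to 0. *IL1A* had 1, 1, 1 and 0 counts with vehicle and 10, 1, 2 and 3 counts with cyclosporine A. The sums, 3 and 16 counts, give a ratio of 6.70 with a 95% counting interval of 1.92 to 35.9, which covers counting error only. Of the 16 treated counts, 10 came from 1 library. With no filter on low counts, edgeR called *IL1A* higher (adjusted p = 0.00282), and the authors' deposited table gives it an adjusted p of 0.0205. *IL1B* had 2 counts over the vehicle libraries and 0 over the treated ones, which allows up to 0.174 CPM at 3 counts over the group.

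Of the 5 tested chemokines, 1 was higher, 2 were lower and 2 did not pass. *CCL20*, the ligand of CCR6 on T and dendritic cells, stood at 15.5, 15.1, 20.1 and 13.8 CPM with vehicle and at 6.99, 9.28, 10.4 and 4.86 CPM with cyclosporine A. The groups did not overlap, and the change was -1.02 ± 0.16 (adjusted p = 2.17e-07). *IL8*, the neutrophil attractant, was at 49.8, 57.8, 54.8 and 56.0 CPM with vehicle and at 82.5, 74.0, 80.1 and 63.9 CPM with cyclosporine A. It rose in every treated library relative to every vehicle library (0.47 ± 0.08, adjusted p = 4.44e-07).

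*CXCL2*, another neutrophil attractant, had means of 31.7 ± 3.43 and 25.6 ± 2.80 CPM with groups that overlapped (-0.29 ± 0.10, adjusted p = 0.0110). It was no longer called in DESeq2 (adjusted p = 0.0548) or without vehicle replicate 3 (adjusted p = 0.0534). *CXCL3* had means of 2.47 ± 0.948 and 3.25 ± 0.349 CPM (0.40 ± 0.28, adjusted p = 0.198) and *CXCL5* of 7.78 ± 1.48 and 7.90 ± 0.994 CPM (0.05 ± 0.18, adjusted p = 0.827). *CXCL1* had 4 counts over the vehicle libraries and 1 over the treated ones, and no count of *CXCL6* or *CCL2* was found in any library, which allows up to 0.139 CPM over the controls and 0.174 CPM over the treated libraries. *CXCL1*, *CXCL2* and *CXCL3* are close copies of each other, and how shared reads were counted is not given in the sources used here; their separate values are uncertain.

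The promoters of these chemokines show how much sequence the genes share. In RefSeq records of build GRCh38.p14, which span 250 bases before to 50 bases after the start of a gene, 27 of the 33 members had an entry (not *IL18*, *LIF*, *CSF1*, *CCL2*, *RELB* or *NFKBIE*). The windows below are written 5′ to 3′ on the strand of the gene, with the match to the 10-letter NF-kB consensus in capitals, or to the 9-letter motif GGANTTTCC for *IL8*. Matches were sought on both strands, and matches to both motifs may overlap. The *CXCL* windows are shown because they hold the same 10-letter match. Of these genes, *CXCL2* fell, *CXCL3* and *CXCL5* did not pass, and *CXCL1* and *CXCL6* were hardly counted. *IL8*, which rose, has no match to the consensus and shares the 9 letters with them but not the flanking bases. The windows of *IL6*, which fell, and *TNFAIP3*, which rose, hold other matches. The 10 letters of the *CXCL* genes are not particular to them. They are also in the promoter of *NFKB1*, which fell, and on the other strand in *REL*, which rose, and *NFKBIA*, which did not pass. The promoter of *CCL20*, which fell, has a different consensus match, 79 bases before the gene start.
*CXCL1* (chr4:73869304-73869333, plus strand): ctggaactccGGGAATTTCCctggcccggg
*CXCL2* (chr4:74099254-74099283, minus strand): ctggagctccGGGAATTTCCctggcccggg
*CXCL3* (chr4:74038749-74038778, minus strand): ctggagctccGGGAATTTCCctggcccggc
*CXCL5* (chr4:73998749-73998778, minus strand): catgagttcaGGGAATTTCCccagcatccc
*CXCL6* (chr4:73836578-73836607, plus strand): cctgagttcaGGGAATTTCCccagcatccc
*IL8* (chr4:73740468-73740496, plus strand): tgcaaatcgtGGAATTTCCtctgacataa
*IL6* (chr7:22727117-22727146, plus strand): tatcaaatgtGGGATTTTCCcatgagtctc
*TNFAIP3* (chr6:137867182-137867211, plus strand, motif on the other strand): acgtgactttGGAAAGTCCCgtggaaatcc

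The match began 79, 78, 79, 91 and 90 bases before the gene start in *CXCL1*, *CXCL2*, *CXCL3*, *CXCL5* and *CXCL6*, 91 bases before it in *IL8*, 73 in *IL6* and 67 in *TNFAIP3*. Over the 27 members with an entry, 12 (44.4%) had a match to the 10-letter consensus, beside 5.90% of all 35093 promoter records, and 13 (48.1%) had the 9-letter motif, beside 1.64%. The members were chosen as known NF-kB genes, so this share is a description of the list. By call, 5 of the 11 members with an entry that fell had the consensus, as did 2 of 6 that rose and 3 of 5 that did not pass. A match is not a bound site, and a window without one says only that these letters are not in it.

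**Figure D2:**
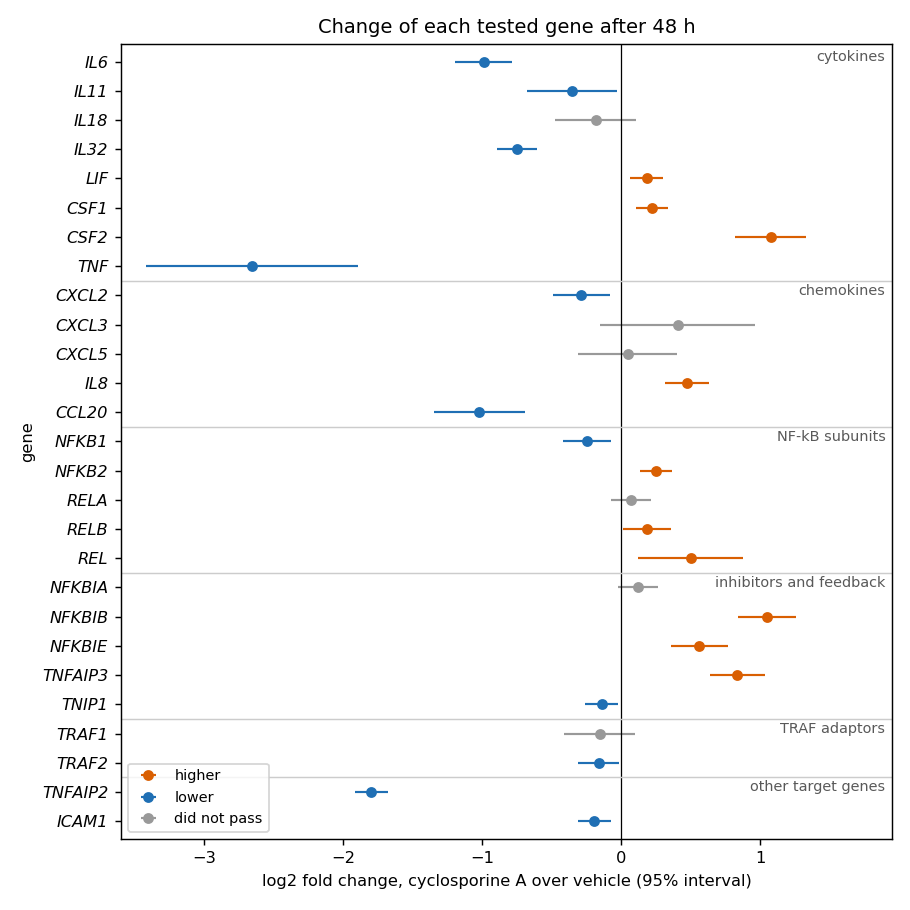
Log2 fold change of each tested member, cyclosporine A over vehicle, with its 95% interval from the fit, grouped by role. Orange genes were higher, blue genes were lower and grey genes did not pass; *TNF* at -2.66 and *TNFAIP2* at -1.799 lie farthest to the left and *CSF2* at 1.07 farthest to the right.

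Receptors of the pathway were measured from a list of 30 genes, of which 19 could be tested. Of these, 5 were higher, 9 were lower and 5 did not pass. *IL1R2*, a decoy receptor for IL-1, fell from 15.9 ± 2.75 to 2.65 ± 1.04 CPM (-2.59 ± 0.21), and the signalling receptor *IL1R1* fell from 34.1 ± 3.99 to 14.5 ± 2.23 CPM (-1.26 ± 0.12). *IL6R*, which binds the IL-6 protein, rose from 65.5 ± 8.64 to 165 ± 7.51 CPM (1.32 ± 0.07). *CSF1R*, the receptor of the *CSF1* product and also a marker of macrophages, rose from 6.24 ± 1.22 to 19.1 ± 3.97 CPM (1.60 ± 0.16). Some other receptor chains, named after their values were seen, went the opposite way to *IL6R* and *CSF1R*, and some did not pass. *OSMR* was lower (-0.34 ± 0.06, adjusted p = 8.38e-07), while *IL11RA* (-0.38 ± 0.32) and *IL1RAP* (0.10 ± 0.10) did not pass. *IL6ST*, the signalling chain gp130 shared by the IL-6 family, was lower by a small amount (-0.15 ± 0.06, adjusted p = 0.0307), a call lost in 6 of 16 alternative settings, among them without vehicle replicate 1 or 2 and without treated replicate 2 or 4. *LIFR*, the receptor of the *LIF* product, was lower as well (-0.41 ± 0.15, adjusted p = 0.0138), a call lost in DESeq2 (adjusted p = 0.0948) and without vehicle replicate 1, where the change was -0.21 (adjusted p = 0.238). *TNFRSF1A*, the main TNF receptor, had means of 364 ± 21.1 and 359 ± 9.56 CPM (-0.02 ± 0.06, adjusted p = 0.754), and *LTBR*, the lymphotoxin beta receptor, did not pass either (0.04 ± 0.06). Other receptors of the TNF family did change. *TNFRSF1B* rose from 3.20 ± 0.77 to 9.26 ± 2.83 CPM (1.47 ± 0.22, adjusted p = 5.45e-08), and *TNFRSF11A* (1.23 ± 0.24) and *TNFRSF12A* (0.36 ± 0.07) were higher too. *CD40* (-0.68 ± 0.07), *TLR2* (-0.65 ± 0.11), *TLR3* (-1.50 ± 0.27) and *IL18R1* (-0.51 ± 0.19) were lower.

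The 28 further receptor adaptors and kinases were all tested, with 7 higher, 13 lower and 8 that did not pass. *BIRC3*, a ubiquitin ligase of TNF receptor complexes and a well known NF-kB target, fell by 2.85 on the log2 scale. *MALT1*, a paracaspase (-1.25 ± 0.08), and *CARD10*, the scaffold that acts with it outside lymphocytes (-1.27 ± 0.07), fell as well, whereas *IRAK1*, a kinase of IL-1 and Toll-like receptors, rose from 181 ± 7.60 to 475 ± 32.4 CPM (1.39 ± 0.06). *TRAF3* (-0.05 ± 0.07) and *TAB2* (0.11 ± 0.06) did not pass. Of the TRAF adaptors among the members, *TRAF2*, which links TNF receptors to IKK, stood at 62.7, 60.7, 61.8 and 61.2 CPM with vehicle and at 56.4, 55.0, 55.4 and 53.2 CPM with cyclosporine A. Its groups did not overlap, but the change was small (-0.16 ± 0.07, adjusted p = 0.0465) and the call was lost in 10 of 16 alternative settings. *TRAF1*, itself an NF-kB target, had means of 21.0 ± 1.74 and 18.6 ± 4.70 CPM (adjusted p = 0.275).

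Of 7 genes of the IKK complex and related kinases, 4 were higher, 2 were lower and 1 did not pass. *CHUK*, which encodes IKK alpha, rose by 0.66 ± 0.10 and *TBK1* by 0.46 ± 0.12, while *MAP3K14*, the kinase NIK of the non-canonical branch, changed by -0.42 ± 0.09 and *IKBKE* by -1.51 ± 0.22. *IKBKG*, the regulatory subunit NEMO, did not pass (-0.17 ± 0.19).

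**Figure D3:**
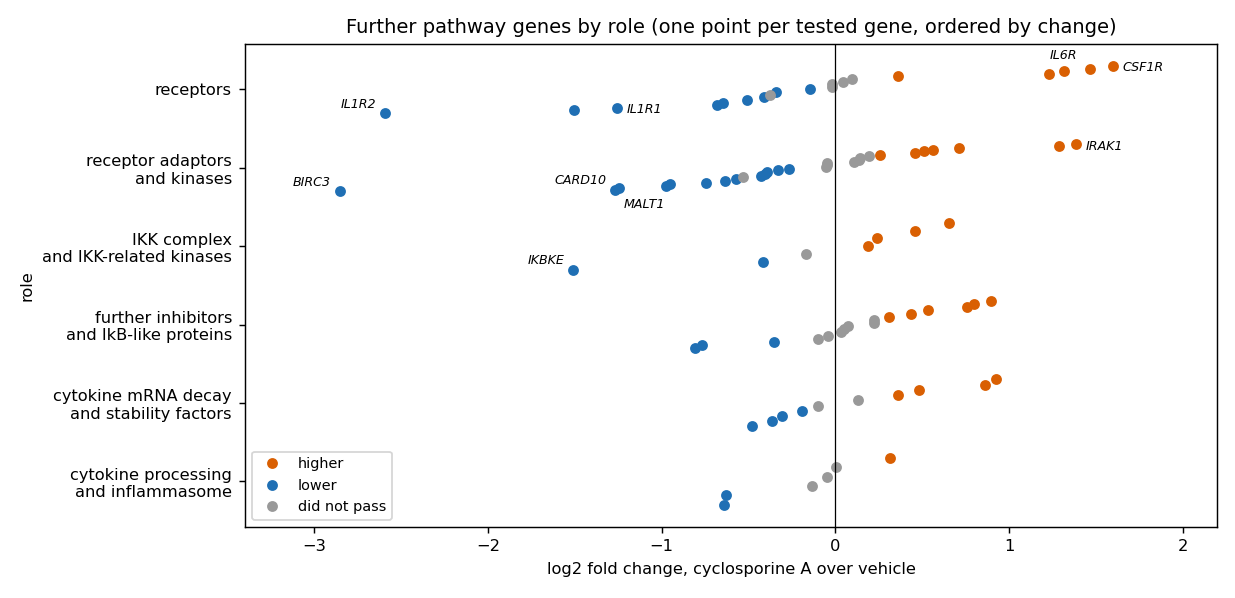
Log2 fold change of the 86 tested genes of the wider pathway by role, cyclosporine A over vehicle, 1 point per gene, coloured by call. Within each role, points are spread vertically in order of change; *BIRC3* at -2.85 and *IL1R2* at -2.59 lie farthest to the left.

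Of the genes of the 5 NF-kB subunits, 3 were higher, 1 was lower and 1 did not pass, with changes of at most 0.50 in size. *NFKB2*, which encodes p100, the precursor of p52, was at 225, 235, 226 and 216 CPM with vehicle and at 273, 269, 251 and 281 CPM with cyclosporine A, and the groups did not overlap (0.25 ± 0.06, adjusted p = 0.000162). *NFKB1*, which encodes the precursor of p50, had means of 48.4 ± 4.30 and 40.6 ± 3.91 CPM with overlapping groups (-0.25 ± 0.09, adjusted p = 0.0106). *REL*, which encodes c-Rel, had means of 5.59 ± 1.05 and 8.01 ± 1.39 CPM (0.50 ± 0.19, adjusted p = 0.0182), and *RELB*, the usual partner of p52, 38.7 ± 2.46 and 44.1 ± 2.83 CPM (0.19 ± 0.09, adjusted p = 0.0499), again with overlap. *RELA*, which encodes p65, did not pass, with a 95% interval of -0.07 to 0.22.

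Only the *NFKB2* call held in all 16 alternative settings. *NFKB1* was lost in DESeq2 (adjusted p = 0.0527) and when vehicle replicate 4 or treated replicate 3 was left out. *REL* was lost in DESeq2 and without replicate 4 of either group, and *RELB* was kept in 2 of the 16 settings. In DESeq2, 1 subunit gene was called higher and 0 lower, with 1 lower at an unadjusted p under 0.05.

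Of the 5 inhibitors and feedback genes, 3 were higher, 1 was lower and 1 did not pass. *NFKBIB*, which encodes IkB beta, was at 16.3, 17.5, 17.8 and 20.3 CPM with vehicle and at 39.5, 38.1, 30.6 and 39.1 CPM with cyclosporine A. All treated libraries lay above all vehicle libraries (1.05 ± 0.11, adjusted p = 4.78e-13). *TNFAIP3*, which encodes the deubiquitinase A20, a feedback inhibitor, was at 27.2, 23.7, 24.3 and 25.7 CPM with vehicle and at 51.0, 46.9, 35.7 and 47.3 CPM with cyclosporine A, likewise without overlap (0.83 ± 0.10, adjusted p = 6.06e-11). *NFKBIE*, which encodes IkB epsilon, rose from 25.1 ± 2.998 to 36.8 ± 5.16 CPM without overlap (0.56 ± 0.10, adjusted p = 3.55e-06).

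*NFKBIA*, which encodes IkB alpha, the classical rapid feedback inhibitor, was at 81.9, 76.9, 83.8 and 77.7 CPM with vehicle and at 97.7, 86.2, 75.2 and 89.0 CPM with cyclosporine A. Its groups overlapped through replicate 3 of the treated libraries (0.12 ± 0.07, adjusted p = 0.130), and without that library it was called higher (0.19, adjusted p = 0.0202). *TNIP1*, an A20-binding protein, had means of 200.3 ± 7.46 and 181 ± 12.5 CPM with overlap (-0.14 ± 0.06, adjusted p = 0.0342), and its call was lost in 6 of 16 settings.

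A further list of inhibitors and IkB-like proteins had 16 tested genes, of which 6 were higher, 3 were lower and 7 did not pass. The deubiquitinase *CYLD* rose from 34.5 ± 2.01 to 64.4 ± 4.53 CPM (0.90 ± 0.08). *FAM105B*, the older symbol of the linear-ubiquitin deubiquitinase OTULIN, rose by 0.80 ± 0.08, and *TAX1BP1*, an A20 partner, by 0.76 ± 0.07. *BCL3*, an atypical IkB protein that acts in the nucleus, changed by -0.77 ± 0.08. *ITCH* (0.05 ± 0.06) and *TNIP2* (0.03 ± 0.07) did not pass.

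Of the other target genes among the members, both that could be tested were lower. *TNFAIP2*, first described as a TNF-induced gene, stood at 665, 671, 668 and 607 CPM with vehicle and at 174, 189, 190.03 and 198 CPM with cyclosporine A, a level of 28.8% of vehicle. The groups were far apart (-1.799 ± 0.06, adjusted p = 1.31e-33). *ICAM1*, a leukocyte adhesion molecule, had means of 568 ± 45.2 and 496 ± 20.2 CPM with groups that overlapped slightly (-0.20 ± 0.06, adjusted p = 0.00288). *PTGS2*, which encodes cyclooxygenase 2, had 13 counts over the vehicle libraries and 3 over the treated ones, a ratio of 0.290 with a 95% counting interval of 0.0530 to 1.06.

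**Figure D4:**
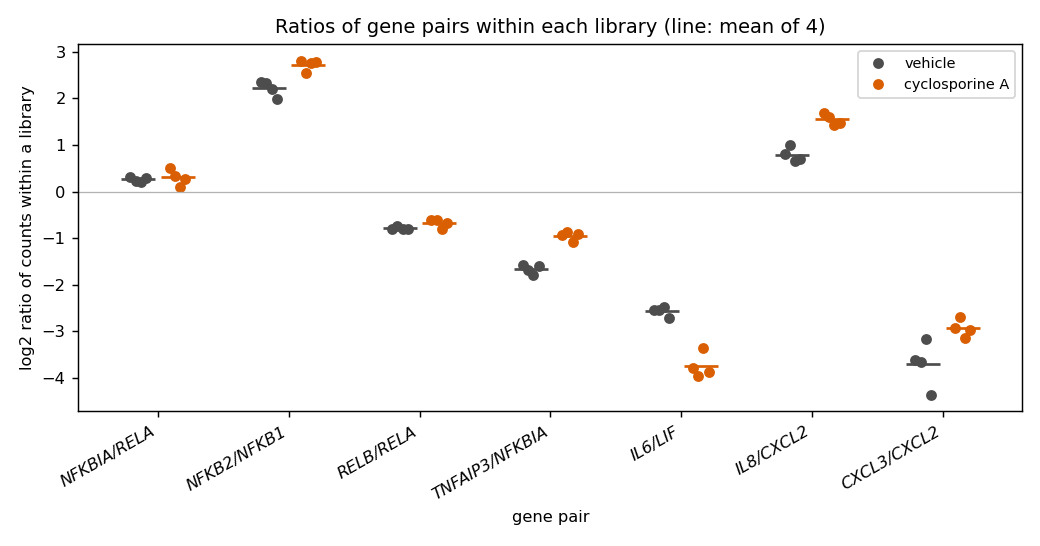
Log2 ratio of the counts of 2 members within the same library, for 7 pairs. Points are libraries and short lines the mean of 4; for *TNFAIP3* over *NFKBIA*, *IL6* over *LIF* and *IL8* over *CXCL2* the grey vehicle points and the orange cyclosporine A points do not overlap.

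Ratios of 2 genes within a library need no scaling between libraries and show whether members moved apart. They depend on gene length, so only their difference between the groups is read. *TNFAIP3* over *NFKBIA* rose by 0.71 on the log2 scale, from -1.66 ± 0.09 to -0.95 ± 0.09 (SD, n = 4 each). *NFKB2* over *NFKB1* rose by 0.50, from 2.22 ± 0.17 to 2.72 ± 0.12, and *IL6* over *LIF* fell by 1.17, from -2.57 ± 0.10 to -3.74 ± 0.27. These 3 pairs each gave an exact two-sided permutation p of 0.0286, the smallest that 4 against 4 libraries allow, and an adjusted p of 0.0476 over the 5 pairs that could be computed of 10 listed. The other 5 included a gene at or near 0. *NFKBIA* over *RELA* differed by 0.04 (p = 0.629, exact permutation test) and *RELB* over *RELA* by 0.11 (p = 0.114).

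Among the chemokines, *IL8* over *CXCL2* rose by 0.76, from 0.79 ± 0.15 to 1.55 ± 0.11, and *CXCL3* over *CXCL2* by 0.76, from -3.69 ± 0.50 to -2.93 ± 0.19. Both pairs were added after the counts were seen, so their separation is a description and their p-values are no test. Over all 7 pairs, the 5 that separated the groups had an adjusted p of 0.0400 in the exact permutation test. For the 3 listed pairs among them, the value to read is the 0.0476 over listed pairs only. The groups of *CXCL3* over *CXCL2* nearly touched, at -3.152 and -3.148, and this call was lost when any treated library was left out.

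Cytokine mRNAs are short-lived, and RNA-binding proteins and endonucleases shorten their life through elements of the 3′ UTR. Of 10 tested genes of mRNA decay and stability, 4 were higher, 4 were lower and 2 did not pass. *RC3H1* and *RC3H2*, which encode the decay factors roquin-1 and roquin-2, rose by 0.92 ± 0.08 and 0.86 ± 0.11. *ZFP36*, which encodes tristetraprolin, rose from 38.2 ± 1.71 to 53.1 ± 4.84 CPM (0.48 ± 0.08), while its relative *ZFP36L2* changed by -0.48 ± 0.08. *ZC3H12A*, which encodes the endonuclease regnase-1 (-0.10 ± 0.08), and *KHSRP* (0.13 ± 0.06, adjusted p = 0.0507) did not pass. Of 6 tested genes of cytokine processing, 1 was higher, 2 were lower and 3 did not pass. *ADAM17*, the protease that sheds TNF, rose by 0.31 ± 0.06, *CASP8* changed by -0.63 ± 0.13, and *GSDMD*, the pore-forming protein of pyroptosis, by -0.64 ± 0.08. *NLRP1* and *IL18BP* did not pass.

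MicroRNAs were measured because several are NF-kB targets or act on the pathway. Of 470 miRNAs tested, 11.3% were called. Of 23 listed miRNAs, 20 could be tested, 2 were higher and 0 were lower in edgeR at the adjusted threshold; at an unadjusted p under 0.05, 2 were lower, and DESeq2 called 0 lower. The miRNAs on which the results turn are written 5′ to 3′ with the seed, bases 2 to 8, in capitals, from RefSeq records.
hsa-miR-155-5p: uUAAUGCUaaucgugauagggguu
hsa-miR-29b-3p: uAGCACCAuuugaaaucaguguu
hsa-miR-146a-5p: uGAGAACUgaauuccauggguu
hsa-miR-146b-5p: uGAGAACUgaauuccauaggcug
hsa-miR-222-3p: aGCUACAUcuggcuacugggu
hsa-miR-221-3p: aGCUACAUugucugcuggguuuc
hsa-miR-7-5p: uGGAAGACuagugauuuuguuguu
hsa-miR-34a-5p: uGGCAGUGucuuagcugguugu

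The treated small RNA libraries fell into 2 sets. Pairs of libraries within a set differed by 74.7 (replicates 1 and 2) and 31.5 (3 and 4) in chi-square per degree of freedom, and pairs between the sets by 129 to 254, beside 36.2 to 189 among the vehicle libraries. TMM factors were 1.17 and 1.15 in replicates 1 and 2 and 0.865 and 0.908 in 3 and 4. Each change below is therefore also read with only 1 of the sets against all vehicle libraries, an alternative added after seeing the data.

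hsa-miR-155-5p, an NF-kB target of immune activation, was at 5858, 7084, 6985 and 6380 CPM with vehicle and at 9928, 8908, 8734 and 9362 CPM with cyclosporine A. Its groups did not overlap (0.49 ± 0.10, adjusted p = 0.00564), and it was called with either set of treated libraries (0.56 and 0.47). hsa-miR-29b-3p rose from 97.3 ± 14.1 to 134 ± 8.91 CPM (0.46 ± 0.13, adjusted p = 0.0310), and this call was lost without vehicle replicate 1 or 3 or treated replicate 3 or 4, and with replicates 1 and 2 only (adjusted p = 0.133).

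hsa-miR-222-3p and hsa-miR-221-3p, which share a seed and are known to act on *ICAM1* mRNA, did not pass. hsa-miR-222-3p had means of 8773 ± 661 and 10886 ± 1909 CPM (0.31 ± 0.12, adjusted p = 0.121). It was called higher with a replicate block (adjusted p = 0.0267), without treated replicate 2 (adjusted p = 0.0144) and with treated replicates 3 and 4 only (0.44, adjusted p = 0.0210), but not with 1 and 2 only (0.22, adjusted p = 0.299). hsa-miR-221-3p had means of 5908 ± 745 and 6921 ± 588 CPM (0.23 ± 0.11, adjusted p = 0.220).

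hsa-miR-146a-5p and hsa-miR-146b-5p share a seed and are known to act on *IRAK1* and *TRAF6* mRNA.

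hsa-miR-146a-5p was at 644, 308, 298 and 261 CPM with vehicle and at 295, 215, 276 and 201 CPM with cyclosporine A, so that 1 vehicle library stood apart and the groups overlapped (-0.61 ± 0.23, adjusted p = 0.0902). It was called lower by edgeR with no filter on low counts (adjusted p = 0.000416), with a replicate block (adjusted p = 0.000274) and without vehicle replicate 2 (adjusted p = 0.0496). In the other settings run it was not called, with adjusted p up to 0.435, the value without vehicle replicate 1, the library that stood apart. There the change was -0.20, so the size of the difference rests on that library. hsa-miR-146b-5p had means of 951 ± 63.6 and 786 ± 80.6 CPM (-0.27 ± 0.11, adjusted p = 0.141). Neither was called with either set of treated libraries alone. Of the 2 mRNAs named above, *IRAK1* was higher by 1.39, and *TRAF6*, named after its value was seen, by 0.26 ± 0.11 (adjusted p = 0.0440), a call lost in 11 of 16 alternative settings.

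The AGO2 cluster lists, whose positions are in build hg19, hold few clusters annotated to the members. The vehicle list has 30 of 56985 clusters in 16 members and the cyclosporine A list 12 of 36812 in 8 members. Since each list pools its libraries and the lists differ in length, these counts show no change. In the vehicle list 18 of the 30 clusters lay on the strand of the gene, 8 on the opposite strand, and for 4 the gene's strand was not known here. Between the lists 3 member clusters overlapped by at least 1 base on the same strand, of 30 and of 12, beside 31.1% of all vehicle clusters and 48.3% of all cyclosporine A clusters that overlap the other list. The list for all Argonaute proteins has 3 of 19306 clusters in 2 members, *NFKB1* and *TRAF1*. Sequences given for these 3 differ in length from their coordinates, and they were not searched for seed matches.

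The strongest cluster in the members lay in *CSF1*, at chr1:110467793-110467819 on the plus strand, in the class the lists call TTS (near a transcript end). It was found in both lists with identical limits and ranked 210 by the authors' score in the vehicle list (score 10218) and 736 in the cyclosporine A list (score 3228). Its sequence is shown because it holds the complement of bases 2 to 7 of hsa-miR-34a-5p, in capitals, a miRNA looked up after the sequence was seen.
*CSF1* cluster: ggtggaACTGCCagtgtagagggaatt
These 6 letters occur in 0.847% of the 1535 clusters at 3′ ends (classes 3′ UTR and TTS) in the vehicle list and in 0.854% of 1054 in the other. The complement of bases 2 to 8 is not in the cluster. hsa-miR-34a-5p had means of 73.4 ± 29.5 and 55.6 ± 14.6 CPM (-0.40 ± 0.22, adjusted p = 0.274), with -0.09 for treated replicates 1 and 2 only, -0.72 for 3 and 4 only and -0.06 without vehicle replicate 2. It was called lower with a replicate block (adjusted p = 0.0340). *CSF1* mRNA was higher by 0.22.

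Among 3′ end clusters in members that are on the gene's strand or whose gene strand was not known here, 1 held the complement of bases 2 to 8 of a miRNA with a mean of at least 1000 CPM (49 of 52 such miRNAs had a sequence). It lay in the 3′ UTR of *TNFAIP2* at chr14:103602615-103602631 on the plus strand, in the vehicle list only, with a low score of 22 (percentile 17.7 of the list).
*TNFAIP2* cluster: tcaaaacgagGTCTTCC
The capitals match the seed of hsa-miR-7-5p, and the same 7 letters occur in 3 of the 1535 clusters at 3′ ends of that list. hsa-miR-7-5p was at 4882, 5332, 5737 and 4992 CPM with vehicle and at 2317, 2369.8, 2638 and 2999 CPM with cyclosporine A. The groups did not overlap (-1.02 ± 0.11, adjusted p = 9.81e-06), the call held with either set of treated libraries (-1.12 and -0.88), and *TNFAIP2* mRNA also fell by 1.799 on the log2 scale. A match of letters is not a functional site.

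The strongest 3′ UTR cluster of the other members was in *REL* (chr2:61153674-61153694, score 161, vehicle list). *IL8*, *CXCL2* and, on the opposite strand, *TNF* had 3′ UTR clusters in the vehicle list with scores from 18 to 32, and *CXCL3* had one in the cyclosporine A list with a score of 84. The exons of *CXCL2* (chr4:74964576-74964594) and *CXCL3* (chr4:74904067-74904085) carry a cluster each in the vehicle list with the same 19 bases, shown because reads of this stretch cannot be assigned to 1 of the 2 genes.
*CXCL2* and *CXCL3* exon clusters: tgcagggaattcacctcaa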

How the data were processed

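HK-2 mRNA and miRNA libraries (4 per treatment each) and 3 lists of PAR-CLIP clusters were used, of 21 samples; groups and replicate numbers come from the sample labels. Whole-number raw counts, by gene symbol and by mature miRNA, are what the authors deposited. Build hg19 and the tools HTSeq, TopHat, Bowtie, DESeq2, cutadapt and CASAVA 1.8.2 are named per the submitters' processing notes; for settings and strand use the sources used here give nothing. The authors' deposited table of log2 fold changes and adjusted p-values was used to count shared calls: it calls 15 of the 27 tested members, and all 15 were called here with the same sign. The authors' cluster score has no stated unit and was used only within a list.

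The fit used R 4.3.3 and edgeR 4.0.16: the filter filterByExpr, TMM scaling and a quasi-likelihood test with treatment as the only term, with Benjamini-Hochberg adjustment over all features and a threshold of 0.05. The standard error is the one implied by the F statistic. Levels are CPM, as mean ± SD over 4 libraries. Count ratios used an offset of 0.5 and an exact permutation test in Python. Library totals for miRNA were 6664231 to 9184278. The edgeR fit was run on simulated counts in which a minority of the features changed. Such a run does not test the scaling where most features are called, as in the mRNA data.

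The members, gene lists, pairs and miRNA list were chosen with earlier results of these data known. All members are named. From each further pathway role, up to 4 called genes with a mean of at least 20 counts were named, by p. Up to 2 genes that did not pass were named as well, by count. For the epithelial markers this rule was not followed in full, and *PAX8* was named after its value was seen. Of the listed miRNAs, the 6 of smallest p were named. Also named were miRNAs with a seed match in a member's cluster (hsa-miR-34a-5p was added after its site was seen). Alternatives were other scalings, DESeq2 1.42.0, limma 3.58.1 (voom), other filters, a replicate block and leaving out each library. Fits with part of the treated small RNA libraries, scaling by library size alone, 2 of the gene pairs and the 9-letter motif were added after seeing the data. No genome was used, so cluster sequences are those of the lists, unchecked against hg19.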

Additional observations from a re-analysis of the deposited data

Results flagged for a closer look

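The tested members and most other genes and miRNAs named with values were screened for single libraries that stood apart. In 8 of 152 groups of 4 libraries, 1 library lay far from the other 3 relative to the range of the group. Chance flags about 1 in 20 groups. *IL6* stood at 38.4 CPM in vehicle replicate 4, beside 48.7 to 49.5 CPM in the other vehicle libraries. *TNFAIP2* stood at 607 CPM in the same library, beside 665 to 671 CPM. *NFKBIB* stood at 30.6 CPM in cyclosporine A replicate 3, beside 38.1 to 39.5 CPM. *IRAK1* stood at 523 CPM in cyclosporine A replicate 4, beside 457 to 460.1 CPM. *BCL3* stood at 75.2 CPM in vehicle replicate 4, beside 69.4 to 70.3 CPM, and at 35.4 CPM in cyclosporine A replicate 3, beside 43.4 to 44.2 CPM. These 5 genes kept their call and direction when any single library was left out. *LIFR* stood at 14.3 CPM in cyclosporine A replicate 3, beside 11.1 to 11.3 CPM; its call was lost without vehicle replicate 1. hsa-miR-146a-5p stood at 644 CPM in vehicle replicate 1, beside 261 to 308 CPM, and its change was -0.20 without that library.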

How the results depend on the processing

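All 21 called members kept their direction in every alternative setting that tested them (16, and 15 for *TNF*, which had too few counts for the filter at a mean of 20), and 13 (7 higher, 6 lower) kept their call in each; *IL11*, *LIF*, *CXCL2*, *NFKB1*, *RELB*, *REL*, *TNIP1* and *TRAF2* lost it in at least 1. DESeq2 called 9 members higher and 6 lower (main counts 10 and 11). It was run without the count filter, so its counts can include members that the main fit did not test. It called 1 chemokine lower, 1 subunit higher and 0 lower, 0 inhibitors lower and 0 TRAF adaptors lower. At an unadjusted p under 0.05 DESeq2 had 1 subunit, 1 inhibitor and 0 TRAF adaptors lower. With no filter on low counts, 0 inhibitors and 0 TRAF adaptors were lower (1 and 0 at an unadjusted p under 0.05). With 1 library left out, 7 to 10 members were lower (7 without vehicle replicate 3 or cyclosporine A replicate 3), 1 to 2 chemokines lower, 1 to 3 subunits higher, 0 to 1 lower, 0 to 1 inhibitors lower and 0 to 1 TRAF adaptors lower. Called miRNAs then ranged from 14 to 29 higher (main 23) and 15 to 29 lower (main 30), with 14 and 15 without vehicle replicate 3. With treated small RNA libraries 1 and 2 only, 14 were higher and 21 lower, and with 3 and 4 only, 31 and 18 (added after seeing the data). *CXCL3* over *CXCL2* ranged from 0.54 to 0.94 and *RELB* over *RELA* from 0.0896 to 0.158, the latter called without cyclosporine A replicate 3 (adjusted p = 0.0400, exact permutation test). Upper quartile scaling moved the median log2 change of all genes to -0.08.

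Replicate numbers showed no pairing of the mRNA samples. Same-numbered mRNA libraries correlated at -0.08, 0.01, -0.06 and 0.03 in their deviations from the group means, beside -0.08 to 0.14 for different numbers. Same-numbered miRNA libraries correlated at 0.04, 0.34, -0.06 and 0.15, beside -0.28 to 0.18 for different numbers. Whether the numbers pair the miRNA samples is not settled by these values. With a replicate block, 9 members were higher and 9 lower, 0 TRAF adaptors were lower (1 at an unadjusted p under 0.05), and 43 miRNAs were higher and 49 lower. An exact paired sign-flip permutation test of the ratios cannot go below p = 0.125, so the 5 called pairs (0.50, 0.71, -1.17, 0.76 and 0.76) had an adjusted p of 0.175 there. Among clusters at or above the median score of each list, 7 vehicle and 6 cyclosporine A clusters of members were left and 1 was shared. With 1 mismatch allowed, 21 member promoters (77.8%) matched the consensus, beside 50.2% of all. Members under about 10 CPM rest on few counts, and in 6 members depth allowed no test.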
